A study of Mus musculus with 9 samples.

Results

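The Ms4a genes described here are 6 myeloid members of the membrane-spanning 4A family, Ms4a6b, Ms4a6c, Ms4a6d, Ms4a7, Ms4a4a and Ms4a4c, in mouse cerebellum. They were found by their symbols and are 6 of the 53924 named rows of each library's table. They were picked as a family because some of them changed strongly in these same libraries, so every value of theirs below is a description and carries no test. RNA of 9 cerebellum samples was sequenced in bulk, in 3 groups of 3 libraries. The PLX3AP group received 3-acetylpyridine (3-AP) after PLX3397, the 3AP group received 3-AP, and the control group received saline. 3-AP is a nicotinamide analogue that destroys the inferior olive, the source of the climbing fibres of the cerebellum, and PLX3397 blocks the CSF1 receptor, a survival signal for microglia and other macrophages. The labels describe its use as microglia depletion. Strain, sex, age, dose and time are not stated in the labels. No group with PLX3397 but without 3-AP was analysed here. Whether the 3 libraries of a group were 3 animals is also not stated, so p-values measure only how these samples spread, which may be technical.

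Ms4a proteins cross the membrane several times and sit mostly in leukocytes, where they associate with receptors and tune their signalling. The best known are Ms4a1 (CD20), the B cell surface protein, and Ms4a2, the beta chain of the high-affinity IgE receptor of mast cells. In mouse, Ms4a6b, Ms4a6c and Ms4a6d are found in monocytes and macrophages, and Ms4a6b also in T cells. Ms4a7 is known in brain from macrophages of the meninges and perivascular spaces and from blood-derived macrophages more than from resting microglia. Human MS4A4A is a macrophage surface protein, and variation in the human MS4A cluster is associated with soluble TREM2, the shed form of a microglial receptor. Mouse Ms4a4c is found in monocytes.

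All 6 lie on mouse chromosome 19, within 283811 bp of an Ms4a cluster of 678559 bp (from the first to the last gene so named, GRCm38, GENCODE M21, chr19:10962293-11640851) that holds 19 Ms4a genes. Ms4a7 lies at chr19:11321039-11336146 on the minus strand, Ms4a4a at chr19:11375523-11392790 and Ms4a4c at chr19:11404770-11427246 on the plus strand, Ms4a6c at chr19:11469366-11482192 and Ms4a6b at chr19:11516512-11531256 on the plus strand, and Ms4a6d at chr19:11586604-11604849 on the minus strand. The transcript BE692007 overlaps Ms4a6c on the opposite strand, and the pseudogene Gm5692 overlaps Ms4a4c. Whether reads were counted by strand is not stated in the labels.

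The 3 Ms4a6 genes are close copies, which bears on how reads were divided between them. Aligned coding sequences (GENCODE M21) were 85.4% identical between Ms4a6b and Ms4a6c, 81.2% between Ms4a6b and Ms4a6d and 79.0% between Ms4a6c and Ms4a6d, against 68.3% for Ms4a4a and Ms4a4c and 59.6 to 65.9% for the other pairs. The stretch of coding bases 76 to 204 holds the longest run that any pair shared, 81 bases in Ms4a6b and Ms4a6d. It is shown because a short read that falls wholly within that run cannot be assigned to 1 of the 2 genes. Capitals mark bases that differ from Ms4a6b, 13 in Ms4a6c and 5 in Ms4a6d.
Ms4a6b: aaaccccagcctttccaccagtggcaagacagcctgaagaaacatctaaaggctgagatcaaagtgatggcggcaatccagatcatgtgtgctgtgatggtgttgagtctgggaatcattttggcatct
Ms4a6c: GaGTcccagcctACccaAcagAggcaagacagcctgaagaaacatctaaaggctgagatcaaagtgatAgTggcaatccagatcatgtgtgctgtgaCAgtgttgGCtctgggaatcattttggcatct
Ms4a6d: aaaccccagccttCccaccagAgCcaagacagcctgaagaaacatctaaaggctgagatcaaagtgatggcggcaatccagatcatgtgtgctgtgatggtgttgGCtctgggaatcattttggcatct

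Over whole transcripts little was shared among the 6. Of all 50-base words, 5.85% of those of Ms4a6c, 3.44% of Ms4a6b and 2.31% of Ms4a6d occurred in another of the 6 members. For Ms4a7, Ms4a4a and Ms4a4c 0 did, but 7.73% of the words of Ms4a4c occurred in Ms4a4b, which is outside the 6. No 100-base word was shared between any of the 6. The larger overlap of Ms4a6c was with the opposite strand of BE692007, at 49.6% of its 50-base words. The estimated counts of Ms4a6c were not whole in 7 of 9 libraries, while those of Ms4a6d and Ms4a4c were not whole in 1 each and those of Ms4a6b, Ms4a7 and Ms4a4a in 0. In all 7 libraries the sum of Ms4a6c and BE692007 came within 0.2 of a whole number (largest distance 0.16). Ms4a6c alone did so in 2 of 7. Counts of Ms4a6b were whole in every library, so adding them could not show whether it shared reads with Ms4a6c. For Ms4a4c, the 25.93 counts in 3AP replicate 1 added to 32 with the 6.07 counts of its paralog Ms4a4b.

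The upstream sequences of Ms4a6b and Ms4a6c were also alike. RefSeq (GRCm38.p6) gave promoters for 5 of the 6 members, and for Ms4a6d none was used. RefSeq places the starts of Ms4a6b and Ms4a4c inside the GENCODE spans given above, so those windows lie within the longer GENCODE genes. The 250 bases before the RefSeq start of Ms4a6b (chr19:11518309-11518558, plus strand) and of Ms4a6c (chr19:11469118-11469367, plus strand) were 85.1% identical over 175 aligned bases. Both hold the same 48-base run, in capitals below, 118 to 71 bases before the start of Ms4a6b and 49 to 2 bases before the start of Ms4a6c. The other pairs of member promoters were 49.6 to 64.3% identical over their aligned bases and shared runs of at most 9 bases. Ms4a4c (chr19:11407411-11407660, plus strand) is shown for the GAGGAA core of the myeloid factor PU.1, in capitals, 61 to 56 bases before its start.
Ms4a6b promoter: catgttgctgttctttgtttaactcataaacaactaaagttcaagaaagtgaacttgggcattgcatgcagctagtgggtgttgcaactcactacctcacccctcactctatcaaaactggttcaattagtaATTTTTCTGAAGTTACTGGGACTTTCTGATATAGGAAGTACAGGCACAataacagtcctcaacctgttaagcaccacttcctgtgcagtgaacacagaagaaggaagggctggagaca
Ms4a6c promoter: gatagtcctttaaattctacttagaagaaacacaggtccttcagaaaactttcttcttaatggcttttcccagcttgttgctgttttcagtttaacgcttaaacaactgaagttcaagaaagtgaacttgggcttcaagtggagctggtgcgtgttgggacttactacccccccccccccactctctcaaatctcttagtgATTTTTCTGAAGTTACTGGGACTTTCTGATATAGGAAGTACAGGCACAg
Ms4a4c promoter: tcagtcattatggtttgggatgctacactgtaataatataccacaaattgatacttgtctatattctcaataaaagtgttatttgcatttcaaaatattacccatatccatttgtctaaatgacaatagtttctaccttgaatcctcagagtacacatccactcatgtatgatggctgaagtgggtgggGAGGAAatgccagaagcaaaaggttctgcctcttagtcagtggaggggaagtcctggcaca

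GAGGAA was found, on either strand, in 1 of the 6 member promoters (Ms4a7 has 2) and in 23.3% of 32851 promoters of the same length. The core of the interferon-stimulated response element, a pair of GAAA words with any 2 bases between them,, occurred in 3.0% of all promoters, TTCNNNGAA, the gamma-activated site, in 7.0%, and the AP-1 site TGACTCA in 4.5%. None of these 3 was found in the 6 member promoters. The search was for exact words, so sites that differ from them by any base were not counted.

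Across the groups the family was low in control cerebellum, higher after 3-AP and close to 0 when PLX3397 had been given before 3-AP. The summed TPM (the authors' abundance unit, corrected for transcript length and depth) of the 6 genes was 1.01 ± 0.301 in PLX3AP, 27.4 ± 3.23 in 3AP and 5.99 ± 1.43 in control (SD, n = 3 each). Single libraries had 1.14, 0.67 and 1.23 TPM in PLX3AP, 30.2, 28.3 and 23.9 TPM in 3AP, and 5.03, 7.64 and 5.31 TPM in control. The 3 groups did not overlap. In bulk tissue, fewer cells of a type and less RNA per cell cannot be told apart.

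**Figure D1:**
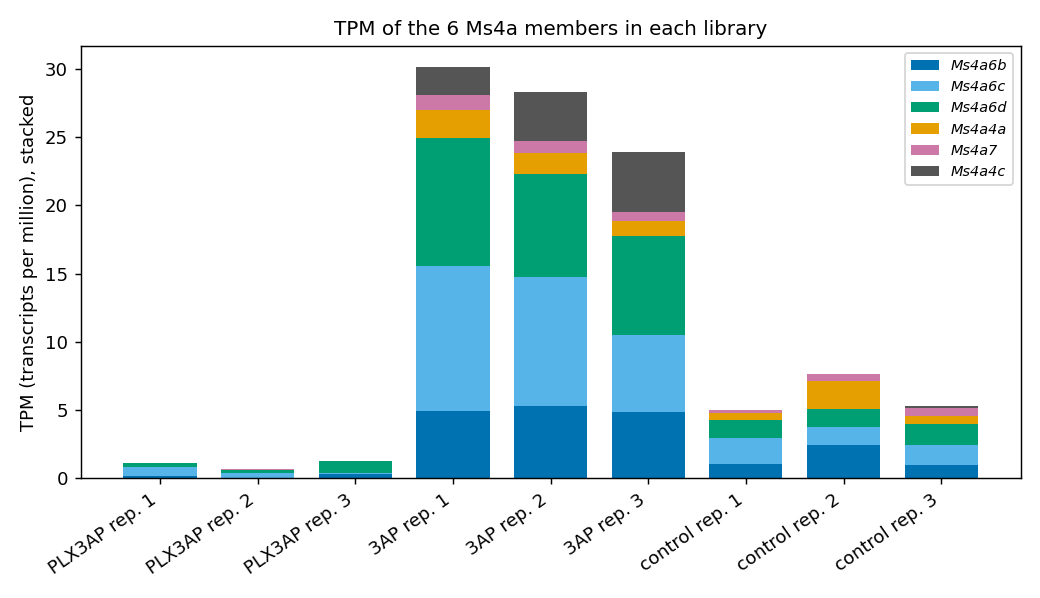
Stacked TPM of the 6 Ms4a genes in each library, with 3 libraries per group; each colour is a gene. The 3AP libraries reach 23.9 to 30.2 TPM and the PLX3AP libraries at most 1.23 TPM, with Ms4a6b, Ms4a6c and Ms4a6d making up most of each bar.

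Ms4a6b, a membrane protein of macrophages and T cells, had 4, 1 and 5 estimated counts in the PLX3AP libraries, 85, 52 and 57 in the 3AP libraries and 21, 24 and 18 in the control libraries. In CPM, that is counts scaled to library size, it averaged 0.168 ± 0.107 in PLX3AP, 3.15 ± 0.887 in 3AP and 1.05 ± 0.178 in control (SD, n = 3 each). Every 3AP library was above every control library, and every PLX3AP library was below both. The edgeR fit gave a log2 fold change of -4.21 (SE 0.45) for PLX3AP against 3AP, or 18.6-fold lower. It gave -2.63 (SE 0.48) for PLX3AP against control and 1.59 (SE 0.36) for 3AP against control.

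Ms4a6c, known from monocytes and macrophages, had the most counts of the family in 3AP. The PLX3AP libraries held 4, 2.99 and 2.6 estimated counts, the 3AP libraries 185.51, 128.02 and 78.59, and the control libraries 22.43, 18.48 and 26. It averaged 0.166 ± 0.0465 CPM in PLX3AP, 6.39 ± 2.65 CPM in 3AP and 1.09 ± 0.172 CPM in control. The groups were separate, and 3AP replicate 1 was the highest and well above 3AP replicate 3. The log2 fold change was -5.24 (SE 0.42) for PLX3AP against 3AP, which is 37.7-fold lower, -2.69 (SE 0.46) for PLX3AP against control and 2.54 (SE 0.32) for 3AP against control. With BE692007 added to Ms4a6c before the fit, these were -5.11 (SE 0.38), -2.64 (SE 0.41) and 2.46 (SE 0.30).

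Ms4a6d, another macrophage member, followed the same order. It had 4, 3 and 3 estimated counts in PLX3AP libraries, 139, 105.8 and 82 in 3AP libraries and 15, 19 and 24 in control libraries, or 0.166 ± 0.0465, 5.32 ± 1.43 and 0.960 ± 0.217 CPM in those groups. No group overlapped another. The log2 fold change was -4.97 (SE 0.37) for PLX3AP against 3AP, or 31.4-fold lower, -2.51 (SE 0.41) for PLX3AP against control and 2.46 (SE 0.29) for 3AP against control. Summing Ms4a6b, Ms4a6c and Ms4a6d to 1 row, which removes any effect of how reads were divided among them, gave -4.90 (SE 0.31), -2.64 (SE 0.32) and 2.26 (SE 0.24).

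**Figure D2:**
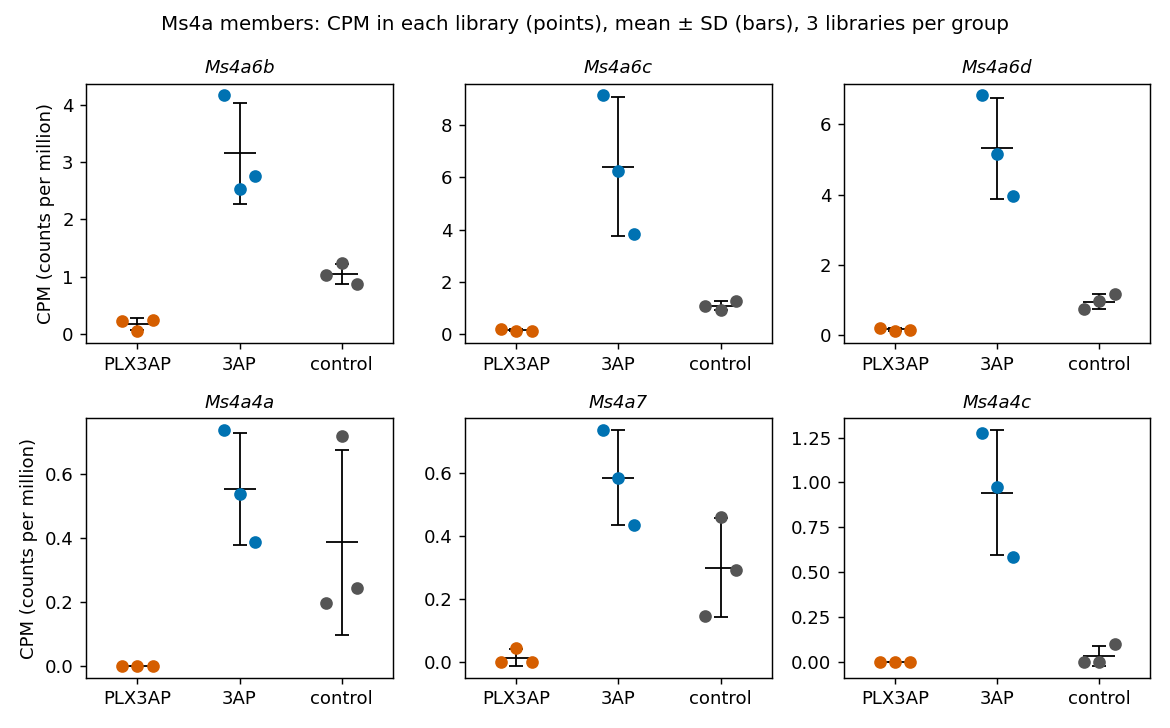
CPM of each Ms4a gene in each library (points), with the group mean and SD (bars), in PLX3AP, 3AP and control; each panel has its own linear scale. Ms4a6b, Ms4a6c and Ms4a6d separate into 3 levels, Ms4a4c is near 0 outside 3AP, and the 3AP and control libraries of Ms4a4a and Ms4a7 overlap.

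Ms4a4c, a monocyte gene, was the member nearest to absent without 3-AP. It had 0, 0 and 0 counts in PLX3AP libraries, 25.93, 20 and 12 in 3AP libraries and 0, 0 and 2 in control libraries, the last for control replicate 3. Summed over libraries, 58 counts in 3AP against 2 in control gave a depth-scaled ratio of 28.4, with a 95% exact counting interval of 7.53 to 240. PLX3AP against 3AP, 0 against 58 counts, was at least 19.3-fold lower with the PLX3AP group set at a floor of 3 counts over the group. PLX3AP and control were both under that floor, so no fold is given for that pair. It shared 50-base words with Ms4a4b, and the counts of both were not whole only in 3AP replicate 1. Summed with Ms4a4b, the counts were 0, 0 and 0 in PLX3AP libraries and 32, 21 and 14 in 3AP libraries. They were 0, 2 and 2 in control libraries. Ms4a4c had enough counts to be tested only through its 3AP libraries.

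For Ms4a4a and Ms4a7 the 3AP and control libraries overlapped. Ms4a4a, the counterpart of the human macrophage protein MS4A4A, had 0 counts in each PLX3AP library, 15, 11 and 8 in 3AP libraries and 4, 14 and 5 in control libraries. Control replicate 2 lay inside the range of the 3AP libraries, and the log2 fold change of 3AP against control was 0.52 (SE 0.60). With PLX3AP at the floor of 3 counts, Ms4a4a was at least 11.3-fold lower in PLX3AP than in 3AP and at least 7.79-fold lower in PLX3AP than in control.

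Ms4a7, the member known from border macrophages, had 0, 1 and 0 counts in PLX3AP libraries, 15, 12 and 9 in 3AP libraries and 3, 9 and 6 in control libraries. It did not pass the filter on low counts. The lowest 3AP library equalled the highest control library in counts, and 36 counts in 3AP against 18 in control gave a ratio of 1.96 (95% exact counting interval 1.09 to 3.67). The single count in PLX3AP against 36 in 3AP was 35.9-fold lower (interval 6.04 to 1455), and against 18 in control 18.3-fold lower (interval 2.89 to 762). These intervals and floors cover counting error only.

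**Figure D3:**
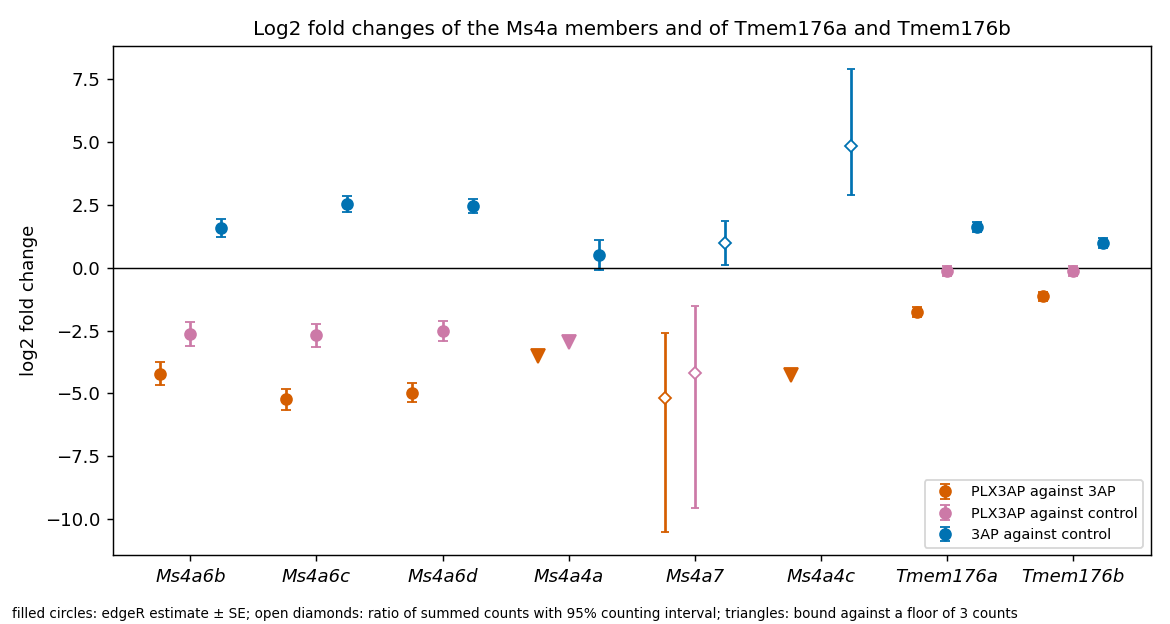
Log2 fold changes of the 6 Ms4a genes and of Tmem176a and Tmem176b in the 3 comparisons. Filled circles are edgeR estimates with their SE, open diamonds are ratios of summed counts with 95% counting intervals, and triangles are bounds against a floor of 3 counts; all 6 Ms4a genes are below 0 for PLX3AP against 3AP, and Ms4a4c has no value for PLX3AP against control because both groups are under the floor.

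Counted at an edgeR adjusted p under 0.05, 5 members were lower in PLX3AP than in 3AP, where 3.16% of the 16634 tested genes were called lower. Ms4a6d was the 1 member called lower in PLX3AP against control, beside 0.0842% of tested genes. In 3AP against control 4 members were called higher, beside 3.75% of tested genes. Only 5 of the 6 could be called, and since the members were picked on these libraries nothing is read from the counts. Over the members with a ratio of summed counts, with groups of 0 counts set at the floor, the median log2 ratio was -4.65 (6 genes) for PLX3AP against 3AP, -2.77 (5 genes) for PLX3AP against control and 2.03 (6 genes) for 3AP against control. The median log2 fold change of all tested genes was -0.01, 0.00 and 0.00 in the same comparisons. With the untested Ms4a7 included, groups did not overlap for 6 members in PLX3AP against 3AP (9.22% of tested genes did not overlap and were lower), for 5 in PLX3AP against control (6.42%) and for 4 in 3AP against control (13.6% did not overlap and were higher). The comparisons share libraries, so they are not independent of each other.

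Leaving out libraries changed some of these counts, while the fitted values stayed of the same sign. Ms4a6b was no longer called in 3AP against control without 3AP replicate 1 or without any 1 of the control replicates; over the 6 fits that leave out 1 library its log2 fold change lay between 1.33 and 1.72. Ms4a4c was no longer called without 3AP replicate 1, control replicate 1 or control replicate 2, with fitted log2 fold changes of 4.32, 4.08 and 4.11 in those fits. Ms4a4a was not called in PLX3AP against 3AP without 3AP replicate 1. Ms4a6d in PLX3AP against control lost its call in 5 of the 6 fits that leave out 1 library, all but that without PLX3AP replicate 1; over the 6 its log2 fold change lay between -2.73 and -2.35. 3AP replicate 1 had the highest CPM of all 9 libraries for each of the 6 genes.

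By TPM, which allows genes to be compared, Ms4a6c and Ms4a6d led after 3-AP. In 3AP the mean TPM was 8.55 ± 2.64 for Ms4a6c, 8.08 ± 1.16 for Ms4a6d, 5.04 ± 0.243 for Ms4a6b, 3.33 ± 1.13 for Ms4a4c, 1.57 ± 0.470 for Ms4a4a and 0.880 ± 0.211 for Ms4a7 (SD, n = 3). Only Ms4a6c and Ms4a6d overlapped as neighbours in that order. In control, Ms4a6c (1.53 ± 0.304), Ms4a6b (1.51 ± 0.815), Ms4a6d (1.39 ± 0.1002), Ms4a4a (1.07 ± 0.827) and Ms4a7 (0.443 ± 0.194) each overlapped the next in TPM, and Ms4a4c (0.0533 ± 0.0924) lay below the rest. In PLX3AP the levels were 0.433 ± 0.339 TPM for Ms4a6d, 0.390 ± 0.276 for Ms4a6c, 0.167 ± 0.115 for Ms4a6b and 0.0233 ± 0.0404 for Ms4a7, with Ms4a4a and Ms4a4c at 0, and no neighbours could be separated.

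The makeup of the family sum also differed between 3AP and control. Ms4a4c took 12.6% ± 5.59 of the summed TPM in 3AP and 1.00% ± 1.74 in control, without overlap between libraries. Ms4a4a took 5.64% ± 1.08 in 3AP and 16.4% ± 8.70 in control, also without overlap. Its own TPM was not lower in 3AP (1.57 ± 0.470, against 1.07 ± 0.827 in control, with overlap). The sum that it was divided by was higher there. The 3 Ms4a6 genes together held 96.5% ± 6.03 in PLX3AP, 78.6% ± 4.11 in 3AP and 75.2% ± 9.13 in control, where the 3AP and control libraries overlapped. TPM also moves with the transcript length estimated in each library. Ms4a6b had 24 counts and 2.45 TPM in control replicate 2 but 21 counts and 1.08 TPM in control replicate 1, and Ms4a4c had its highest TPM (4.33) in 3AP replicate 3, where its count of 12 was the lowest of the 3AP group.

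Other genes of the family had few counts. None of the 15 other rows whose symbol starts with Ms4a passed the filter, and 6 of them (Ms4a5, Ms4a10, Ms4a13, Ms4a18, Ms4a19 and Ms4a20) had 0 counts in all 9 libraries. Ms4a1 (CD20) had 0, 0 and 1 counts in PLX3AP libraries, 1, 1 and 0 in 3AP libraries and 0, 2 and 1 in control libraries. Ms4a4b, a T cell member in mouse, had 0 counts in each PLX3AP library, 6.07, 1 and 2 in 3AP libraries and 0, 2 and 0 in control libraries. Ms4a4d, the highest of the 15 in summed counts, had 2, 4 and 3 in PLX3AP libraries, 5, 5 and 3 in 3AP libraries and 3, 0 and 4 in control libraries. Ms4a8a had 0 counts in PLX3AP, 2 in each 3AP library and 0 in control.

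Tmem176a and Tmem176b, related membrane proteins of macrophages and dendritic cells that lie outside the cluster, were the family relatives that could be tested. Tmem176a had 4.33, 3.61 and 5.29 CPM in PLX3AP libraries, 18.5, 13.5 and 12.3 CPM in 3AP libraries and 4.32, 4.88 and 5.31 CPM in control libraries. It was lower in PLX3AP than in 3AP (log2 fold change -1.74, SE 0.19, edgeR adjusted p 0.00019) and higher in 3AP than in control (1.61, SE 0.19, adjusted p 0.0003). Tmem176b had 18.4, 17.7 and 21.4 CPM in PLX3AP libraries, 51.4, 45.2 and 29.9 CPM in 3AP libraries and 17.7, 20.6 and 25.1 CPM in control libraries, with log2 fold changes of -1.14 (SE 0.19, edgeR adjusted p 0.0068) for PLX3AP against 3AP and 1.00 (SE 0.19, adjusted p 0.013) for 3AP against control. Against control the PLX3AP libraries of both overlapped (log2 -0.13, SE 0.20, edgeR adjusted p 0.86 for Tmem176a and -0.14, SE 0.20, adjusted p 0.85 for Tmem176b). Neither was called there by DESeq2 or limma-voom, and 0 of the 2 had an unadjusted p under 0.05. The Ms4a6 genes were 5.69- to 6.47-fold lower in the same comparison, a difference from Tmem176a and Tmem176b that was not tested. Tmem176b lost its call in 3AP against control without 3AP replicate 2, control replicate 1 or control replicate 2. By TPM the PLX3AP libraries (6.57 to 15.69) and 3AP libraries (15.49 to 29.33) of Tmem176a overlapped. Tmem176a lost its call in PLX3AP against 3AP with limma on log2(TPM + 1) and on log2(TPM + 0.1).

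Of the genes whose products are linked to Ms4a proteins, 6 of 13 rose after 3-AP. The list of 13 holds Trem2 and its adaptor and signalling partners, the sheddases Adam10 and Adam17, the dectin-1 pathway and others, all tested. In PLX3AP against 3AP 0 were higher and 6 lower, with a median log2 fold change of -0.83. In 3AP against control 6 were higher and 0 lower, with a median of 0.85. Without 3AP replicate 1 that count was 3. None passed in PLX3AP against control, with 0 called by edgeR, DESeq2 or limma-voom (7 at an unadjusted p under 0.05, median -0.25).

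Fcer1g, the gamma chain of Fc receptors, had 1.88 ± 0.734 CPM in PLX3AP, 12.01 ± 2.92 CPM in 3AP and 3.35 ± 0.263 CPM in control, with log2 fold changes of -2.67 (SE 0.27, edgeR adjusted p 8.7e-05) for PLX3AP against 3AP and 1.84 (SE 0.26, adjusted p 0.00088) for 3AP against control. Spi1, which encodes PU.1, had 0.855 ± 0.302 CPM in PLX3AP, 5.23 ± 0.573 CPM in 3AP and 1.56 ± 0.777 CPM in control (log2 -2.61, SE 0.36, edgeR adjusted p 0.00088, and 1.74, SE 0.34, adjusted p 0.009). Tyrobp, the adaptor of Trem2, changed by -1.99 (SE 0.20, edgeR adjusted p 7.6e-05) and 1.33 (SE 0.19, adjusted p 0.0011) on the log2 scale. The inositol phosphatase Inpp5d (-1.91 and 1.19) and the phospholipase Plcg2 (-1.13 and 0.86) were called in both comparisons. The kinase Syk was called lower in PLX3AP than in 3AP (-1.70, SE 0.30), and the interleukin 4 receptor chain Il4ra was called higher in 3AP than in control (0.77, SE 0.16). Trem2 itself had 3.61 ± 0.968 CPM in PLX3AP, 6.42 ± 1.10 CPM in 3AP and 4.20 ± 0.668 CPM in control and was not called by edgeR or limma-voom in any of the 3 comparisons, while DESeq2 called it lower in PLX3AP than in 3AP (log2 fold change -0.83). DESeq2 also called Il4ra lower there (-0.58). Clec7a, which encodes dectin-1, a binding partner of human MS4A4A, was likewise not called by edgeR or limma-voom but was called higher by DESeq2 in 3AP than in control (log2 fold change 2.22), with 0.633 ± 0.415 CPM in PLX3AP, 0.927 ± 0.346 CPM in 3AP and 0.199 ± 0.04995 CPM in control.

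Of 10 protein-coding genes to the sides of the cluster, 2 were called in the same directions as the members. They lie 102931 bp (Slc15a3) and 819928 bp (Mpeg1) from its ends, each the farthest of the list on its side. Slc15a3, a lysosomal peptide and histidine transporter, had 0.517 ± 0.0743 CPM in PLX3AP, 2.503 ± 0.621 CPM in 3AP and 0.548 ± 0.0957 CPM in control (log2 -2.26, SE 0.34, edgeR adjusted p 0.0016 for PLX3AP against 3AP, and 2.18, SE 0.34, adjusted p 0.002 for 3AP against control). Mpeg1, the pore-forming perforin-2 of macrophages, had 9.33 ± 4.27 CPM in PLX3AP, 27.7 ± 5.94 CPM in 3AP and 11.2 ± 0.634 CPM in control (log2 -1.56, SE 0.28, edgeR adjusted p 0.012, and 1.31, SE 0.28, adjusted p 0.026). The other 8 (Tmem132a, Tmem109, Prpf19, Ccdc86, Mrpl16, Stx3, Patl1 and Osbp) were not called by edgeR or limma-voom. DESeq2 called Tmem132a lower in 3AP than in control (log2 fold change -0.25). The list's median log2 fold change was 0.03 for PLX3AP against 3AP and 0.02 for 3AP against control. Leaving out any 1 of the libraries of 3AP against control other than 3AP replicate 3 left 1 of the 2 called there, and leaving out PLX3AP replicate 2 left 1 called in PLX3AP against 3AP. In PLX3AP against control 0 were called by edgeR, DESeq2 or limma-voom, and 1 had an unadjusted p under 0.05.

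Inside the cluster 16 annotated genes do not have an Ms4a symbol, of which 3 were matched to no row by symbol. Of the other 13 the long noncoding RNA AW112010, named after its values were seen, was the 1 with enough counts to test. It had 22, 18 and 13 counts in PLX3AP libraries, 54, 58 and 57 in 3AP libraries and 19, 23 and 19 in control libraries. Its log2 fold change was -1.65 (SE 0.30, edgeR adjusted p 0.0062) for PLX3AP against 3AP and 1.43 (SE 0.29, edgeR adjusted p 0.012) for 3AP against control.

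Markers of myeloid cells moved in the same comparisons, and their part in the Ms4a values was not tested. The 10 microglia markers summed to 88.8 to 134 CPM in PLX3AP, 226 to 267 CPM in 3AP and 143 to 154 CPM in control. By edgeR, 5 were lower in PLX3AP against 3AP, among them Tmem119, Cx3cr1, Olfml3 and Csf1r, and in 3AP against control 4 were higher, among them Tmem119, Cx3cr1 and Olfml3, with median log2 fold changes of -1.07 and 0.71. P2ry12 (log2 fold change -0.47, SE 0.25), Siglech (-0.49, SE 0.34) and Gpr34 (-0.85, SE 0.26) had negative values in 3AP against control and were not called, and the 3AP and control libraries of Gpr34 did not overlap. In PLX3AP against control 0 were called by edgeR and limma-voom, 3 by DESeq2, and 6 had an unadjusted p under 0.05 (median -0.65).

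The 9 markers of border-associated macrophages, the cells of the meninges and perivascular spaces, summed to 4.39 to 8.54 CPM in PLX3AP, 36.8 to 41.1 CPM in 3AP and 25.1 to 28.8 CPM in control. Of these, 8 were called lower in PLX3AP than in 3AP, all but Clec10a, with a list median of -3.19 on the log2 scale. Against control, 5 were called lower in PLX3AP (Mrc1, Cd163, Lyve1, F13a1 and Stab1; median -3.27). In 3AP against control F13a1 and Stab1 were called higher (1.52 and 0.65 on the log2 scale; list median 0.11). Mrc1, the mannose receptor, had 0.257 ± 0.232 CPM in PLX3AP, 5.09 ± 2.21 CPM in 3AP and 4.71 ± 0.351 CPM in control.

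The 8 blood monocyte markers, 6 of them tested, summed to 68.3 to 88.9 CPM in PLX3AP, 95.9 to 114 CPM in 3AP and 85.7 to 91.4 CPM in control, mostly from Fn1 and Vcan, which other cells also express. Plac8 had 0.0651 ± 0.0266 CPM in PLX3AP, 2.41 ± 0.705 CPM in 3AP and 0.0983 ± 0.128 CPM in control, and Chil3 0.1002 ± 0.0957, 3.76 ± 1.08 and 0.216 ± 0.150 CPM in those groups. Ccr2, Plac8 and Chil3 had enough counts to be tested only through their 3AP libraries (at most 0.341 CPM in any other library). In PLX3AP against 3AP 4 of the 6 tested markers were lower (Ccr2, Ly6c2, Plac8 and Chil3). In 3AP against control 3 were higher (Ly6c2, Plac8 and Chil3) and Vcan was lower. In PLX3AP against control 0 were called by edgeR or limma-voom and 1 by DESeq2, with 1 at an unadjusted p under 0.05 and a median of -0.57 on the log2 scale, beside 2.08 in 3AP against control. The 6 neutrophil markers, 3 of them tested, summed to 0.713 to 1.38 CPM in PLX3AP, 6.20 to 18.0 CPM in 3AP and 0.294 to 2.87 CPM in control. Ly6g was at 0 in 6 of 9 libraries, those of PLX3AP among them. By edgeR, S100a9 and Retnlg were called lower in PLX3AP than in 3AP and higher in 3AP than in control. S100a8 was not called in either by edgeR (adjusted p 0.07 and 0.08), but DESeq2 called it in both. Retnlg had enough counts to be tested only through its 3AP libraries.

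**Figure D4:**
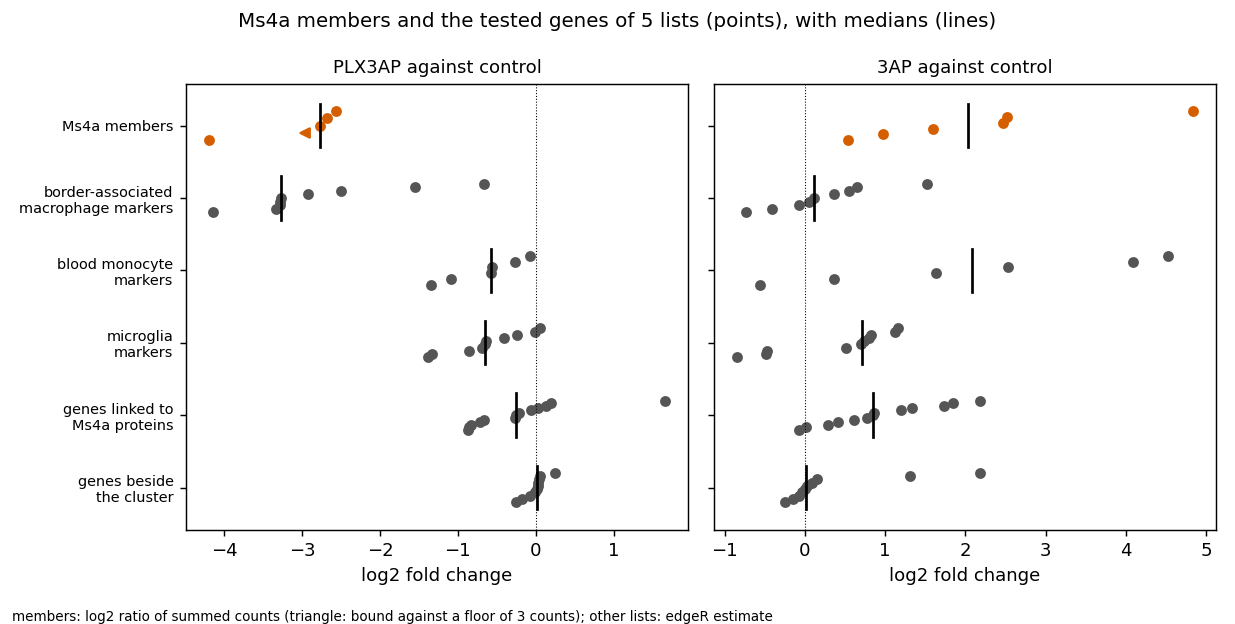
Log2 fold changes in PLX3AP against control and in 3AP against control for the Ms4a genes, for tested markers of 3 myeloid cell types, and for tested genes linked to Ms4a proteins or beside the cluster; points are genes and vertical lines are medians. Values of the Ms4a genes are log2 ratios of summed counts, with groups of 0 counts set at a floor of 3, and those of the other lists are edgeR estimates. In PLX3AP against control, where Ms4a4c has no value, the median of the other 5 Ms4a genes is -2.77. It is -3.27 for border-associated macrophage markers, -0.65 for microglia markers and -0.57 for blood monocyte markers. In 3AP against control the medians are 2.03, 0.11, 0.71 and 2.08 in the same order. Ms4a4c and, of the blood monocyte markers, Ccr2, Plac8 and Chil3 had enough counts to be tested only through their 3AP libraries. Nothing is therefore read from how near 2.03 and 2.08 are.

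Lymphoid and mast cell markers were low. The 4 genes of the B cell list, which holds Cd79a, Cd79b and Ms4a1, summed to at most 0.406 CPM in PLX3AP, 0.681 CPM in 3AP and 0.589 CPM in control. The T and NK cell list summed to 0.0549 to 0.334 CPM in PLX3AP, 0.388 to 0.932 CPM in 3AP and 0.0513 to 0.292 CPM in control. Every 3AP library was above all others in that sum, as for the summed Ms4a genes. The part of such cells in the Ms4a values was not tested. The mast cell list summed to at most 0.110, 0.292 and 0.359 CPM in those groups. None of the genes of these 3 lists could be tested. Of the dendritic cell list, Flt3 and Zbtb46 were tested and not called in any comparison by edgeR, DESeq2 or limma-voom. Of these, 0 had an unadjusted p under 0.05. Flt3 averaged 44.6, 38.7 and 43.1 CPM in PLX3AP, 3AP and control, and Zbtb46 70.2, 76.8 and 68.1 CPM, while Xcr1 and Cd209a were near 0. Which cells gave the Flt3 and Zbtb46 reads was not tested, so nothing is read from them about dendritic cells. Purkinje and granule cell markers of the cerebellum summed to 4789 to 5411 CPM in PLX3AP, 4752 to 5006 CPM in 3AP and 5110 to 5712 CPM in control. Of these 6 markers 0 were called in any comparison by the 3 tools, with 0 in PLX3AP against 3AP, 1 in PLX3AP against control and 2 in 3AP against control at an unadjusted p under 0.05.

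The genes with profiles most like each tested member were mostly myeloid for the Ms4a6 genes. Likeness was the root mean square difference over the 9 libraries of log2(CPM + 0.5) minus the control mean. Nearest to Ms4a6b were Nfam1 (0.26), an ITAM-bearing receptor, Nckap1l (0.35), a haematopoietic actin regulator, and Pld4 (0.37), a lysosomal nuclease. Nearest to Ms4a6c were Lyz2 (0.22), the lysozyme of macrophages, Itgam (0.43), the integrin chain CD11b, and Cybb (0.43), the NADPH oxidase subunit. Nearest to Ms4a6d were Lyz2 (0.26), Adgre1 (0.33), the F4/80 antigen, and Fcgr3 (0.35), an Fc receptor. Lyz2 had 3.36 ± 0.233 CPM in PLX3AP, 38.9 ± 12.8 CPM in 3AP and 9.84 ± 1.31 CPM in control.

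At the low counts of Ms4a4a and Ms4a4c the pseudocount flattens the profile, and their nearest genes were of other kinds. They were Entpd1 (0.22), an ectonucleotidase, Gm45104 (0.24) and Kcng1 (0.25), a potassium channel subunit, for Ms4a4a. For Ms4a4c they were Arhgdib (0.13), a GTPase regulator of haematopoietic cells, and the extracellular matrix genes Dcn (0.14) and Ecm1 (0.15).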

How the data were processed

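RNA of mouse cerebellum was measured in 9 libraries, 3 per group, grouped as the labels give them. Per the submitters' processing notes, reads were handled by the authors with RSEM, StringTie, HISAT2 and fastp, on mm10. Versions, annotation and strandedness are not given there. The authors deposited expected counts, estimated for each gene without normalisation (28.7 to 30.8% of values above 0 are not whole), and TPM, which sums to 999999 to 1000001 per library. Libraries held 18452256 to 22358447 expected counts. Of 55808 rows, 1884 without a gene name (0.526 to 0.660% of counts) were left out. No 2 replicates were 1 library deposited again: their counts gave a chi-square of 4.68 to 27.2 per degree of freedom.

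Rounded counts were fitted in R 4.3.3 with edgeR 4.0.16: filterByExpr (minimum count 10) left 16634 genes, scaling was by TMM (factors 0.986 to 1.02), and all 9 libraries entered a robust quasi-likelihood model with group as its term. Two-sided p-values were Benjamini-Hochberg adjusted over the 16634 genes, and a gene was called under 0.05. An SE is the absolute log2 fold change divided by the square root of F. CPM, SDs, ratios and intervals (95%, exact binomial) are not the authors' but derived from the deposited expected counts. In simulated data (16634 genes), planted 4-fold changes were recovered in 87.9% of genes for PLX3AP against 3AP and in 89.4% for PLX3AP against control. The share was 86.4% for 3AP against control. Planted 2-fold changes were recovered in 67.2 to 73.1% of genes and 1.5-fold changes in 35.8 to 47.8%. Over all planted folds, 9 of 144, 12 of 144 and 12 of 148 calls were false in the same order of comparisons.

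Coding sequences and positions came from GENCODE M21 and promoters from RefSeq (GRCm38.p6). Coding sequences stood in for protein sequences, which were not used here. Sequences were aligned with Biopython 1.88.

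The members and the gene lists were chosen with earlier results of these data known. Named are all members, family relatives that passed the filter, called genes of the other lists, and for each tested member the 3 other genes with the most similar profile. Some genes of the marker lists are not reported here by name. DESeq2 1.42.0, limma 3.58.1, other scalings, no filter, a replicate block, leaving out each library and summing paralogs were tried as alternatives.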

Additional observations from a re-analysis of the deposited data

How the results depend on the processing

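Over 16 or 17 alternatives each, the 14 member comparisons with a fold gave 227 values, of which 193 kept their direction and their side of the threshold, 19 lost a call, 15 gained one and 0 reversed. Since the members were picked on these libraries, these counts are a description. Ms4a6d in PLX3AP against control lost its call in 10 of 16 alternatives. DESeq2 called 4 members lower there. Tmem176a turned to 0.76 and 0.85 on the log2 scale in PLX3AP against control with limma on log2(TPM + 1) and log2(TPM + 0.1); its TPM ran from 6.57 to 15.69 in PLX3AP and from 4.74 to 6.01 in control, while its CPM overlapped.

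Without 1 library, the genes called in 3AP against control (820 of all tested) ranged from 476 to 785, in PLX3AP against 3AP (621) from 408 to 725 and in PLX3AP against control (20) from 7 to 125, the last without PLX3AP replicate 1. In PLX3AP against control, DESeq2 called 110 (42 higher, 68 lower, against 6 and 14), the fit without a filter 71 and limma on log2(TPM + 1) 9. Family relatives called in 3AP against control numbered 1 to 2 without 1 library, and 1 in PLX3AP against 3AP with limma on either TPM scale. Linked genes called in 3AP against control were 3 with limma on log2(TPM + 0.1), and 3 to 6 without 1 library. Genes beside the cluster called were 1 without a filter in PLX3AP against 3AP and in 3AP against control, 1 in PLX3AP against 3AP when only the 2 groups were fitted, and 1 to 2 without 1 library. Causes were not tested.

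Replicate numbers did not pair the libraries: same-number correlations ran from -0.18 to 0.07 and 0 of 9 libraries correlated best with its own number. With a replicate block the genes called were 580 in 3AP against control, 504 in PLX3AP against 3AP and 10 in PLX3AP against control; the relatives and the genes beside the cluster called in 3AP against control were 1 each, and Ms4a6b was not called there. The sum of Ms4a6c and BE692007 was added after the data were seen. Summed counts of 10 or fewer per member in PLX3AP limit what can be said of that group.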
